A study of Danio rerio with 20 samples.

Results

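The 9 genes described here belong to the caspase and p53 arms of apoptosis, namely the caspase genes casp3a, casp3b, casp8 and casp9, the p53 partner tp53bp2a, the p53 regulator mdm2, and the BCL2 family genes baxa, bcl2a and bbc3. They were chosen by name, with casp3a and tp53bp2a picked from the smallest adjusted p values of the comparison described below, so that their values in it are a description and test nothing. Of the 9 genes, 3 are among the 2885 genes that the authors' deposited table lists, with tp53bp2a and casp8 higher and casp3a lower in old brains, and 6 (casp3b, casp9, mdm2, baxa, bcl2a and bbc3) are not in it. The table compares whole brains of WT male zebrafish of AB background at over 30 months of age with those of WT males at 2 months. These ages are those of the labels, whereas the paper's design gives each group as a range of months. The labels hold 3 libraries of the older age and 2 of the younger one, and the methods compare each later WT age with that of 2 months in a fit of WT brains alone, without naming the libraries. The design text gives 3 fish for every group, which the 2 labelled libraries at 2 months do not match. The WT fish were siblings of tert−/− fish from a cross of heterozygous parents, and the series of 20 libraries in 7 groups also holds WT fish of 9 and 22 months and tert−/− fish of 2, 9 and 22 months, which were not analysed here. Only males were used, and a whole brain mixes all of its cell types, so that fewer cells of a type and less RNA per cell cannot be told apart.

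Apoptosis is run by caspases, proteases that cut after aspartate. In the extrinsic route, death receptors of the TNF receptor family recruit and activate caspase-8. In the intrinsic route, BAX-type proteins open the outer mitochondrial membrane, cytochrome c leaves the mitochondria, and the APAF1 apoptosome activates caspase-9, while BCL2-type proteins hold BAX back and BH3-only proteins such as PUMA (bbc3) release it. Both routes end in caspase-3, the main executioner. p53 drives transcription of death genes such as BBC3 and BAX and of arrest genes, MDM2 marks p53 for degradation, and the ASPP proteins, of which TP53BP2 (ASPP2) is one, bind p53 and shift its choice of targets. In the brain, caspase-3 is best known for the removal of surplus neurons and newborn cells.

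The authors' deposited table has, per gene, the mean normalized count over all libraries of the fit, the log2 fold change (WT at over 30 months over WT at 2 months), its standard error, written below as ±, and a Benjamini-Hochberg adjusted p from DESeq2. It holds no value per library, so that no spread between fish can be given and the error of each value is the standard error of the authors' fit. A gene enters the table only with an adjusted p under 0.05, and a gene that is not in it was either not called, not tested, or one of 47 called genes that the adjusted p values imply and the table does not list. The ratio of adjusted to raw p implies that 21135 genes were tested, and the listed ones make up 13.7% of them (6.53% higher and 7.12% lower). The 3 listed members are to be read against those shares, but since 2 of them were picked for being listed, nothing follows from their number. The log2 fold changes are taken to be shrunken estimates, although the paper does not mention shrinkage. The basis is that their median ratio to the Wald statistic times the standard error is 0.87. The mean normalized counts are not corrected for gene length, so that their order among genes depends on length too. That order is given only to place a gene in the table. The table does not hold the depth of the libraries, for which the paper gives only a minimum and an average over samples. The listed neuron markers include snap25a, a part of the synaptic release machinery, whose mean normalized count of 37420 is the second highest of all listed genes, after mbpa, a myelin gene, at 78061, and both are defining genes of brain tissue.

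casp3a, which encodes the executioner caspase-3, was 2.90 times lower in WT brains at over 30 months than in those at 2 months. The gene (ENSDARG00000017905) lies on chromosome 1 of GRCz11 from 17527342 to 17536307, a span of 8.97 kb. Its log2 fold change in the deposited table was -1.54 (± 0.13), which puts the older brains at 34.4% of the level of the younger ones, and the 95% normal interval runs from -1.79 to -1.29, or from 2.44 to 3.45 times lower. The adjusted p was 9.94e-32, the 14th smallest of all listed genes and the 10th smallest of those that were lower. The mean normalized count of 480 exceeds that of 70.9% of the listed genes. Of the 268 other listed genes with a mean normalized count within a factor of 1.25 of it, 6 had an absolute log2 fold change at least as large, 3 of them lower, and the median absolute log2 fold change was 0.43. The standard error of casp3a was close to the median of those genes, at 0.13. Because casp3a was selected on its adjusted p, this place among genes of similar count and precision follows from the choice and is a description. The second caspase-3 gene of the fish, casp3b, is not in the table.

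tp53bp2a, which encodes the ASPP2 protein that binds p53, was 2.41 times higher in WT brains at over 30 months than in those at 2 months. The gene (ENSDARG00000009136) lies on chromosome 13 of GRCz11 from 646700 to 664472, a span of 17.8 kb. Its log2 fold change in the deposited table was 1.27 (± 0.10), with a 95% interval from 1.07 to 1.47, or from 2.104 to 2.77 times higher. The adjusted p was 9.89e-34, the 13th smallest of all listed genes, directly before casp3a, and the 4th smallest of those that were higher. The mean normalized count was 442. Of 251 other listed genes within a factor of 1.25 of this count, 8 had an absolute log2 fold change at least as large, 4 of them higher, and the median standard error was 0.13. As for casp3a, the choice of the gene by its adjusted p and direction fixes this place.

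casp8, which encodes the initiator caspase of the death receptor route, was 1.83 times higher in WT brains at over 30 months than in those at 2 months. The gene (ENSDARG00000058325) lies on chromosome 6 of GRCz11 from 13045885 to 13058979, a span of 13.1 kb. Its log2 fold change in the deposited table was 0.87 (± 0.34), with a 95% interval from 0.21 to 1.54, or from 1.15 to 2.91 times higher. The adjusted p was 0.0115, so that casp8 is the listed member closest to the threshold of the table, and the members outside it have no value here. Its mean normalized count of 32.1 exceeds that of 17.6% of the listed genes, and of 183 other listed genes within a factor of 1.25 of this count, 159 had an absolute log2 fold change at least as large. The standard error of 0.34 lies below the median of those genes, at 0.46. Their median absolute log2 fold change was 1.35. Only called genes are compared, and a gene with a larger standard error needs a larger change to be called. The place of casp8 among them thus depends on the threshold and on its standard error, and is a description. Small shrunken values are listed at this count too, such as pla2g4cl1 at -0.24 and 35.5 counts. The calls rest on the Wald statistic, so that such a value need not mean a small change before shrinkage. The interval of casp8 is the widest of the 3 members. The call of casp8 ended at an adjusted p under 0.01 and under the Bonferroni adjustment (adjusted p = 1). Those of casp3a and tp53bp2a held there, which follows from their choice by adjusted p. casp8l1 and casp20, related caspase genes, lie close to casp8 on the same chromosome in the RefSeq annotation of GRCz12tu, with 1 protein-coding gene between casp8 and casp8l1 and 3 between casp8 and casp20. Neither is in the table, and reads that such relatives may share were not tested.

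**Figure D1:**
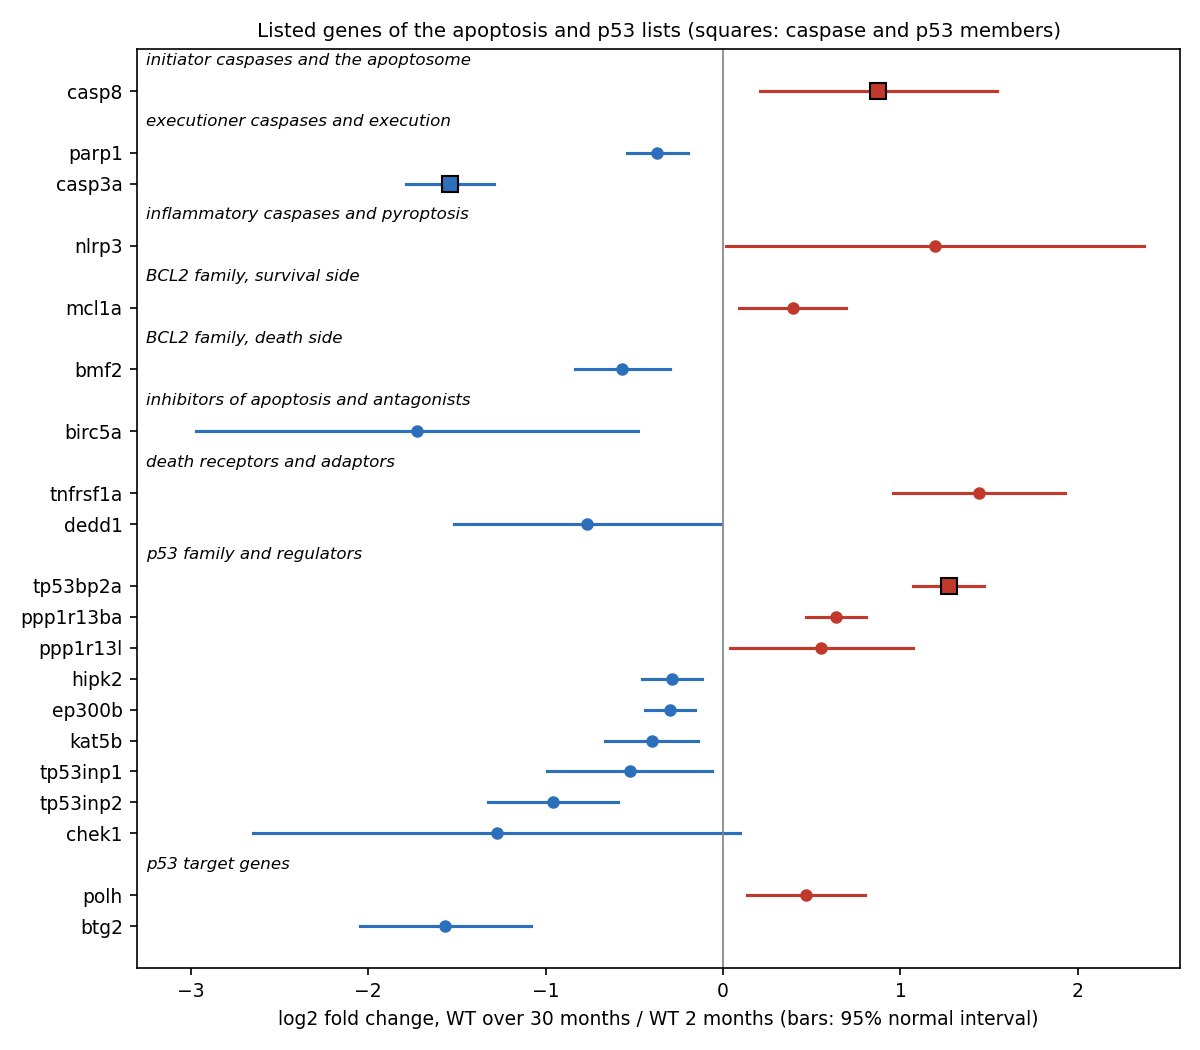
Log2 fold change (x axis, WT at over 30 months over WT at 2 months) of the 20 listed apoptosis and p53 genes. They are grouped by role. Values are the deposited estimates, taken to be shrunken, with 95% normal intervals from the standard error as bars. Red is higher and blue lower in the older brains, and squares mark the 3 listed members, of which casp3a (-1.54) and tp53bp2a (1.27) have narrow intervals on opposite sides of 0 and casp8 (0.87) a wide one.

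**Figure D2:**
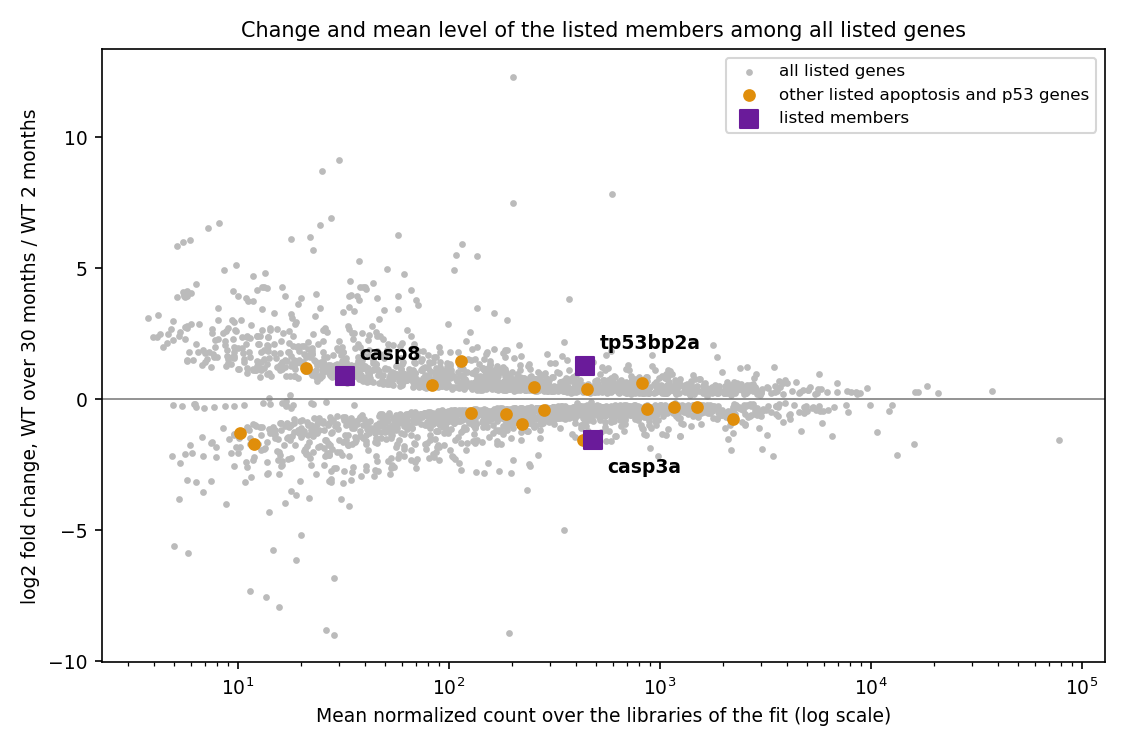
Mean normalized count (x axis, log scale) and log2 fold change of WT at over 30 months over WT at 2 months (y axis) of all 2885 listed genes in grey, the 17 other listed apoptosis and p53 genes in orange and the 3 listed members as purple squares. casp3a (480) and tp53bp2a (442) lie at the outer edge of the genes of their level, whereas casp8 (32.1) lies at the inner edge, and the empty band around 0 reflects that only called genes are listed.

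To set the members in their pathway, 9 lists by role were drawn up with earlier results of this table known, and they hold 151 annotated genes, members included. Of these, 8 were higher and 12 lower in WT brains at over 30 months and 131 are not in the table, so that 13.2% are listed, against 13.7% of all tested genes. Without the members, 6 of 142 genes were higher and 11 lower, or 11.97%, and the median log2 fold change of these 17 listed genes was -0.37, against -0.25 for all listed genes. Only called genes are listed, so that both medians depend on the split by direction and neither gives a typical change. Over all listed genes, the median was 0.76 for the higher ones and -0.59 for the lower ones. The share of genes listed was thus near that of all tested genes, although the denominators differ, since an annotated gene need not have been tested.

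The counts of the single lists are small, and none was tested against the 13.7% of all tested genes (6.53% higher and 7.12% lower). Among caspases, casp3a and casp8 are the listed ones of 15 annotated genes, and casp2, casp9 and casp10 are among those not in the table. Of 18 annotated genes of executioner caspases and execution, 2 (11.1%) were lower and 16 are not listed. One of these lower genes is casp3a, which was chosen for being lower. The other lower one was parp1, which encodes a DNA damage sensor that caspase-3 cuts, at -0.37 on the log2 scale (± 0.09, adjusted p = 0.000212) and a mean normalized count of 873. Of 13 annotated genes of initiator caspases and the apoptosome, casp8 (7.69%) was higher and 12 are not listed, apaf1 and fadd among them. Upstream of caspase-8, 1 of 21 annotated death receptors and adaptors was higher and 1 lower (9.52% listed). tnfrsf1a, which encodes a receptor of TNF, was 2.72 times higher, at 1.44 (± 0.25, adjusted p = 4.44e-08) and a mean normalized count of 115, with an interval from 0.96 to 1.92. dedd1, which encodes a protein with a death effector domain, was at -0.76 (± 0.38, adjusted p = 0.0311) and 2225 counts, with an interval from -1.52 to -0.01. Among inflammatory caspases and pyroptosis genes, nlrp3, a sensor of the inflammasome, was higher (12.5% of 8 annotated genes) and the other 7 are not listed. Its value was 1.196 (± 0.60, adjusted p = 0.0255) at 20.9 counts, with an interval from 0.02 to 2.37.

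In the BCL2 family, 14.3% of the survival side and 5.88% of the death side are listed, against 13.7% of all tested genes, with 1 gene each. None of baxa, bcl2a and bbc3 is in the table, nor are baxb, bcl2l1 and bcl2l11. Of 7 annotated genes of the survival side, mcl1a, which encodes a short-lived relative of BCL2, was higher at 0.39 on the log2 scale (± 0.15, adjusted p = 0.0249) and 452 counts. Of 17 annotated genes of the death side, bmf2, a BH3-only gene, was lower at -0.57 (± 0.14, adjusted p = 0.000171) and 187 counts. Of 10 annotated inhibitors of apoptosis and their antagonists, birc5a was lower and 9 are not listed, xiap among them. birc5a encodes survivin, which also serves in mitosis, and stood at -1.72 on the log2 scale (± 0.64, adjusted p = 0.00628) at 11.97 counts, with an interval from -2.97 to -0.48.

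Genes of the p53 family and its regulators had the largest share in the table among the 9 lists. Of 29 annotated genes, 3 were higher and 6 lower (31.0%, against 13.7% of all tested genes). tp53bp2a is one of the 3 and was chosen for being listed and higher. The list was singled out as the largest of 9 after the counts were seen. Its share was not tested, nor counted without tp53bp2a. mdm2, mdm4, atm and tp53bp1 are not in the table. The other higher genes encode relatives of ASPP2. ppp1r13ba, the gene of an ASPP1 protein, was 1.56 times higher, at 0.64 on the log2 scale (± 0.09, adjusted p = 4.67e-12) and 823 counts. ppp1r13l, the gene of iASPP, known in mammals as an inhibitor of p53, was 1.47 times higher, at 0.55 (± 0.26, adjusted p = 0.0373) and 83.5 counts, with an interval from 0.04 to 1.07. With these, 3 of the 5 annotated ASPP genes were higher, against 6.53% of all tested genes, while tp53bp2b and ppp1r13bb are not listed. tp53bp2a was chosen for being higher, and the family was singled out after its values were seen. This count was not tested.

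The 6 lower genes of this list have mixed roles. tp53inp2, known mainly for a role in autophagy, was at -0.96 (± 0.19, adjusted p = 2.07e-06) and 222 counts. Its relative tp53inp1, a p53-induced gene in mammals, was at -0.53 (± 0.24, adjusted p = 0.0329) and 127 counts. The acetyltransferase genes ep300b and kat5b were at -0.30 (± 0.07) and -0.40 (± 0.13), and hipk2, a kinase that acts on p53, was at -0.29 (± 0.09). These 3 changes were between 1.22-fold and 1.32-fold. chek1, a checkpoint kinase of dividing cells, was at -1.28 (± 0.70, adjusted p = 0.0297) and 10.2 counts, with an interval from -2.65 to 0.10 around the shrunken value, which includes 0 because the calls rest on the Wald statistic and not on the shrunken value.

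Among known p53 targets, 1 was higher and 1 lower of 28 annotated genes (7.14%, against 13.7% of all tested genes), a difference that was not tested. cdkn1a, ccng1, sesn1, zmat3 and phlda3 are not in the table. btg2, an antiproliferative gene that is also an activity-induced gene in neurons, was 2.96 times lower, at -1.57 on the log2 scale (± 0.25, adjusted p = 2.39e-09) and 433 counts. polh, which encodes a DNA polymerase that bypasses lesions, was 1.38 times higher, at 0.47 (± 0.17, adjusted p = 0.0138) and 253 counts. Its gene lies 149 kb from tp53bp2a.

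The 3 listed members differ in their surroundings. tp53bp2a lies 647 kb from an end of chromosome 13, where 4.96% of the listed genes lie as close or closer to an end and the median distance is 13686 kb. All 4 other listed genes within 500 kb of it were higher, namely polh, AL929536.3, mpc1, a mitochondrial pyruvate carrier gene, and cfap36, with log2 fold changes from 0.34 to 1.36. Counted from that end, the first 7 listed genes were higher, tp53bp2a included, and the 8th was lower. The run ends at the first lower gene by definition, and only this chromosome end was counted in this way. Within 1000 kb, all 6 listed genes at that end were higher, against 120 of 199 over all chromosome ends. tp53bp2a is among the 6 and was itself chosen for being higher. Around casp8, 1 listed gene within 500 kb was higher and 4 were lower, the nearest being mcm6, a subunit of the replicative helicase, 60.5 kb away at -2.16 (± 0.47). Next to casp3a, the single listed gene within 500 kb was helt, a transcription factor gene 57.1 kb away, at -2.21 (± 0.66) and 11.9 counts. Of all 2885 listed genes, 1380 were higher. Genes that lie close together are not independent, and no test was made of these counts.

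**Figure D3:**
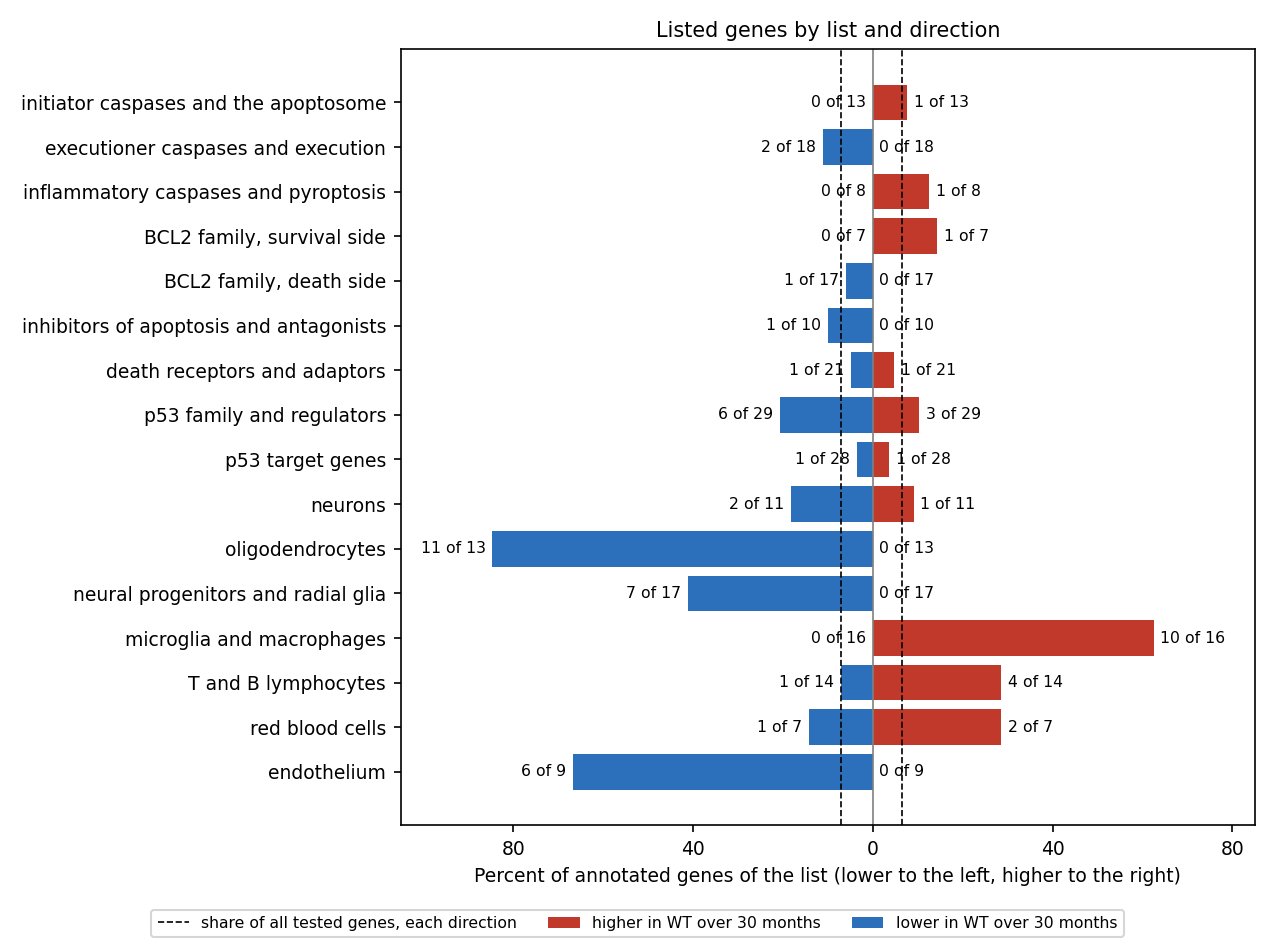
Share of the annotated genes of each list (x axis, percent) that was higher (red, to the right) or lower (blue, to the left) in WT brains at over 30 months than at 2 months, with counts beside the bars and dashed lines at the shares of all tested genes, 6.53% higher and 7.12% lower. Among the apoptosis and p53 lists, bars rest on 0 to 6 genes per direction, the most in p53 family and regulators (3 higher and 6 lower of 29), while the markers of oligodendrocytes (11 of 13 lower) and of microglia and macrophages (10 of 16 higher) lie far from them.

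Markers of several cell types differed between the ages together with these genes. Of all tested genes, 6.53% were higher and 7.12% lower, and no marker list was tested against these shares. Of 17 annotated markers of neural progenitors and radial glia, 7 were lower, none was higher and 10 are not listed, with log2 fold changes from -3.45 to -0.42. They include the genes of dividing cells mki67 at -3.45 (± 0.36) and top2a at -2.80 (± 0.27), and the gene sox4a of young neurons at -1.12 (± 0.15). Of 13 annotated oligodendrocyte markers, 11 were lower and 2 are not listed, with a median of -1.42 and values from -2.12 to -0.35. Among them were plp1b at -2.12 (± 0.14), mpz at -1.70 (± 0.13) and mbpa at -1.57 (± 0.15). Of 9 annotated endothelial markers, 6 were lower, tie1 at -0.95 (± 0.14) among them. On the other side, 10 of 16 annotated markers of microglia and macrophages were higher, from 0.96 to 1.73. They include ptprc at 1.73 (± 0.36), csf1ra at 1.33 (± 0.31) and spi1b at 1.204 (± 0.29). Of 14 annotated lymphocyte markers, 4 were higher and 1 lower. Among the higher were il2rb at 2.56 (± 0.52), zap70 at 1.29 (± 0.60) and lck at 1.66 (± 0.79), and the lower one was pax5 at -0.85 (± 0.52). Of 7 annotated red blood cell markers, 2 were higher, 1 was lower and 4 are not listed. The haemoglobin genes hbaa2 and hbba2 were higher at 3.96 (± 0.92) and 1.85 (± 0.89), while cahz, a carbonic anhydrase gene, was lower at -0.47 (± 0.08) with the smallest adjusted p of the 3. Of 11 annotated neuron markers, 1 was higher and 2 lower, with snap25a at 0.30 (± 0.06) and nefmb, a neurofilament gene, at -1.15 (± 0.23). The part of the cell makeup in the values of casp3a, casp8 and tp53bp2a was not tested.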

How the data were processed

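Whole-brain poly(A) RNA was sequenced, and 1 comparison was used, WT at over 30 months against WT at 2 months. Per the submitters' processing notes, cutadapt 3.0, MultiQC 1.9, STAR, HTSeq and GRCz11 were used. The paper instead names featureCounts as the counter, and the authors tested with DESeq2. The paper names a directional library kit, whereas the kit in the labels is not called directional. Mean normalized counts (a signal over all libraries fitted) were deposited by the authors. So were log2 fold changes, taken here to be shrunken, with standard errors, computed by the authors. Wald statistics and gene positions are deposited as plain scores. Raw p-values, which equal two-sided normal p of the deposited Wald statistics, and Benjamini-Hochberg adjusted ones complete the table. These columns are the authors' own comparison, used because no values per library were analysed here.

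The 2887 entries hold 2885 genes. Members and lists were matched by symbol, and a list gene counted as annotated where its symbol is in the reference tables (14 symbols were not) or the deposited table. Members and lists were chosen with earlier results of these data known. Named were all members, every listed gene of the apoptosis and p53 lists and up to 3 markers per direction and cell type with the smallest adjusted p. The number of tested genes follows from how adjusted and raw p relate, a step tested on simulated data. No protein comparison was run. Intervals are 95% normal intervals from the standard error. The alternatives were stricter adjusted p, Bonferroni adjustment, minimum changes and minimum counts, the Wald statistic times its standard error, and matching by identifier. Python 3.11.15, numpy 2.4.6, pandas 2.3.3, scipy 1.17.1 and matplotlib 3.10.9 were used.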

Additional observations from a re-analysis of the deposited data

How the results depend on the processing

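casp3a and tp53bp2a passed every alternative threshold run. For the stricter adjusted p and the Bonferroni adjustment, that follows from their choice by adjusted p. Passing the minimum changes is not independent of that choice either. Matching by gene identifier gave the same 3 members. casp8 was lost at an adjusted p under 0.01 and 0.001, under the Bonferroni adjustment, for changes of 1 or more on the log2 scale and for mean normalized counts from 50 or 200 up, each of which left 2 members. As the Wald statistic times the deposited standard error, the log2 fold change was -1.56 for casp3a, 1.29 for tp53bp2a and 1.12 for casp8. Of the 3, casp8 differed most from its deposited value. This product need not equal the unshrunken change, since the deposited standard error may belong to the shrunken value. Of the 20 listed apoptosis and p53 genes, 12 (3 higher and 9 lower) remained at an adjusted p under 0.01, 9 (3 higher and 6 lower) under 0.001, 6 (3 higher and 3 lower) under the Bonferroni adjustment, 7 (3 higher and 4 lower) for changes of 1 or more on the log2 scale and 12 (4 higher and 8 lower) for mean normalized counts from 200 up, where 1664, 954, 576, 896 and 1399 of all listed genes remained in the same order of settings. Among the apoptosis and p53 genes left at each of these settings are casp3a and tp53bp2a, which were chosen by adjusted p. These counts were not taken without them. No paired analysis was possible because the table holds no value per library, and for the same reason no library could be left out. The mean normalized counts of casp8, nlrp3, birc5a and chek1 are low, between 10.2 and 32.1, and the part of depth in their errors was not tested.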

Other observations

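Outside the lists, some further genes around cell death stand in the table, all singled out after their values were seen. gadd45gb.1, of a family of growth arrest genes, was 6.15 times lower in WT brains at over 30 months than at 2 months (log2 fold change -2.62, standard error 0.35). axl, which encodes a receptor for the uptake of dying cells, was at -0.76 (standard error 0.22) and 120 counts, and xkr8.1, related to the mammalian scramblase gene XKR8 whose protein caspases cut, was at 3.94 (standard error 1.41) and 5.57 counts. lmna, which encodes a lamin that caspases cut, was at 0.69 (standard error 0.17), tnfsf12, a gene of the TNF ligand family, at 0.47 (standard error 0.17) and traf4a, an adaptor gene, at -0.43 (standard error 0.08). tp53i3, named in mammals for its induction by p53, was at -5.87 with a standard error of 2.598 and an interval from -10.96 to -0.78 at 5.82 counts, so that its size is poorly known.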
